A study of Homo sapiens with 24 samples.

Results

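The copies of the 5S ribosomal RNA gene were followed across 24 Affymetrix arrays of HAP1 cells. All symbols beginning with RN5S and a number were taken where a probe set named only that copy, the probe set with the highest mean standing for a copy with several. Of 447 such copies, 226 reached the median of all values (2.42 on the log2 scale) on at least 2 of the 24 arrays and are described here. The members were thus chosen by their level over all arrays, and RN5S85 drew attention to them by its difference between SA100 and lomustine. The other 221 did not, and 16 further probe sets that name several copies were not used.

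HAP1 is a human line, almost haploid, that was made from the leukaemia line KBM-7. All 6 lines were bought from Horizon Discovery. They were the parental line (PAR), S51A, in which the stress-phosphorylated serine of eIF2-alpha is changed, and ΔHRI, ΔGCN2, ΔPKR and ΔPERK, each named for a missing kinase that phosphorylates that serine; they are written HRI, GCN2, PKR and PERK from here on. They were left without drug (9 arrays), given lomustine, a DNA-alkylating nitrosourea, at 200 µM for 2 h (9 arrays), or given the treatment titled SA100 for 2 h (6 arrays). The agent field of the SA100 arrays names lomustine while the treatment text gives NaAsO2 at 100 µM. The title decided the group here, and the treatment is taken to be sodium arsenite. Without drug and with lomustine, PAR, S51A and HRI had repetitions A and B, and each of the other 12 groups of line and treatment had 1 array. The labels do not say whether A and B were separate cultures, so p-values measure only the spread between these arrays, which may be technical. Nor do they say whether a line is 1 clone.

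The 5S RNA is the small ribosomal RNA of the large ribosomal subunit, and the one that RNA polymerase III makes. TFIIIA binds a promoter inside the gene, TFIIIC and TFIIIB join it, and the finished RNA enters the ribosome with RPL5 and RPL11. The same particle, when it is not built into ribosomes, can bind MDM2, a ubiquitin ligase. Besides the intact genes, which lie in tandem, the human genome holds many scattered pseudogene copies that resemble the 5S gene but are not known to supply ribosomes.

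The copies measured here were of the second kind. All 226 matched a RefSeq entry (GRCh38.p14) through an older symbol, and all 226 are pseudogenes there, named RNA5SP. None of the 17 intact RefSeq genes, each 121 bases long and on chromosome 1, had a probe set of its own, since the numbers of the 447 copies run from 18 to 519. The RefSeq entries of the 226 copies have a median length of 113 bases and run from 18 to 8505, so not all are near the length of the intact gene. They lie on every chromosome, with the highest counts on chromosome 1 (26 copies) and chromosome 16 (20 copies). An annotated gene overlaps 155 of them (68.6%), against 122 of the 221 copies that did not pass (55.2%), and for 113 of the 226 that gene is protein-coding. The direction of the probes was not used, so a signal from the overlapping transcript and one from the copy cannot be told apart, nor can probes shared between similar copies.

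A check of the labels gave mixed values. In the lines named for a lost kinase its transcript was still measured: EIF2AK1 (HRI) averaged 7.70 in its line and 7.73 in PAR, EIF2AK2 (PKR) 7.36 and 7.56, EIF2AK3 (PERK) 3.73 and 4.33 (3.71 in S51A), and EIF2AK4 (GCN2) 5.83 and 6.10, on the log2 scale. A probe outside the altered part of a gene checks nothing. Of 5 blood markers tested, PTPRC reached the median of all values on 0 arrays, CD34 on 7, SPI1 on 16, HBG1 on 20 and GATA1 on 24. Among epithelial markers KRT8, KRT18 and EPCAM reached it on 24 arrays and CDH1 on 7. Among fibroblast markers COL1A1 reached it on 24, COL1A2 on 10, and DCN and LUM on 0. Array medians of all probe sets ran from 2.34 to 2.58, and arrays give no read depth.

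Most 5S copies had low values. Their means over the 24 arrays ran from 1.55 to 8.12 with a median of 2.51, while the median of all 17339 genes tested was 3.71. The mean was at or above the median of all values for 135 copies and below it for 91. Only 20 copies averaged at least 4 and only 4 at least 6. The median range of a copy over the 24 arrays was 1.62 log2 units, against 1.10 for all genes tested, and 25 copies ranged over more than 3 units. Of the 226, 45 reached the median on every array and 64 on fewer than 6. On either side of the threshold the second-highest array of RN5S222, RN5S241 and RN5S304 read 2.41, just outside, and that of RN5S389, RN5S475 and RN5S358 read 2.42, 2.44 and 2.46, just inside.

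**Figure D1:**
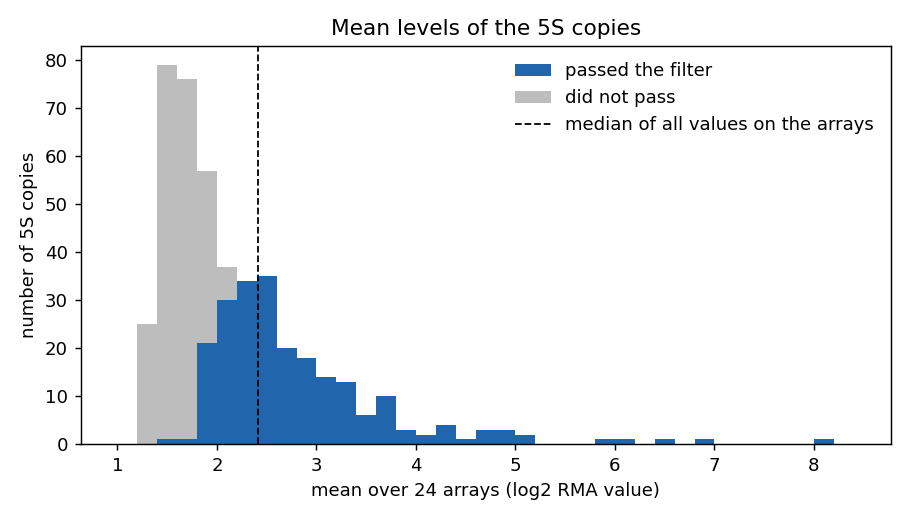
Number of 5S copies (vertical axis) by mean value over 24 arrays (horizontal axis, log2 RMA value), stacked, with the 226 that passed the filter in blue and the 221 that did not in grey. The dashed line is the median of all values, 2.42, and 91 of the copies that passed have a mean to its left.

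The 8 copies with the highest means were RN5S199 (8.12), RN5S150 (6.92), RN5S186 (6.43), RN5S132 (6.18), RN5S408 (5.98), RN5S453 (5.12), RN5S93 (5.10) and RN5S145 (4.91), all in log2 units and not comparable between probe sets. RN5S199, on chromosome 5 within SGCD, a muscle membrane gene, lies at the top. RN5S150, RN5S132 and RN5S145 are on chromosome 3, RN5S186 on chromosome 5, RN5S408 on chromosome 16, RN5S453 on chromosome 18 and RN5S93 on chromosome 2. RN5S408 read 6.93 in HRI lomustine A and 3.46 in HRI lomustine B, its lowest array. RN5S453 read 6.79 on S51A lomustine B and 5.91 on PAR lomustine A, and 4.32 to 5.57 on the other arrays.

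A few 5S copies were higher on the SA100 arrays than on the untreated arrays, RN5S141 and RN5S85 most. In all, 6 of the 226 copies were higher and 0 lower by limma's test (adjusted p under 0.05 over all genes). Of all genes tested, 2.11% were higher and 0.952% lower, so the share of copies that were higher, 2.65%, was close to that of all genes. At an unadjusted p under 0.05 there were 49 copies (21.7%, against 16.5% of all genes). The median change of the copies was 0.04, as for all genes, and single copies ran from -1.09 to 2.55. All 6 would pass the filter on low values without the SA100 arrays.

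RN5S141, on chromosome 3 and overlapped by no tested gene, changed most. Without drug it read 3.16 and 2.55 in PAR (A and B), 2.15 and 1.45 in S51A, 3.03 and 2.16 in HRI, 1.96 in GCN2, 3.76 in PKR and 2.68 in PERK. With SA100 it read 4.94 in PAR, 6.25 in HRI, 5.40 in GCN2, 5.30 in PKR, 6.42 in PERK and 2.84 in S51A. The lines other than S51A thus lay above every untreated and lomustine array, and S51A alone lay among them. The rise was 2.55 log2 units (SE 0.310; limma adjusted p = 1.93e-05), and it passed in 29 of 29 alternatives. As 4 of the 9 untreated values lay below the median of all values and cannot be told from background, the size of the rise is uncertain. Over all arms RN5S141 was 1.14 lower in S51A than in PAR, which did not pass (SE 0.369; limma adjusted p = 0.150), and a difference between lines in the response to SA100 was not tested. CEP63, a centrosome gene and the nearest gene tested, differed by 0.04 between SA100 and no drug and did not pass.

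RN5S85, on chromosome 2 within GREB1, gave the next largest rise. Its 6 SA100 values were 5.49 in PAR, 6.06 in S51A, 6.30 in HRI, 5.82 in GCN2, 6.45 in PKR and 5.99 in PERK. Its untreated values were 6.38 and 3.55 in PAR (A and B), 6.67 and 3.85 in S51A, 3.93 and 3.18 in HRI, 3.13 in GCN2, 2.98 in PKR and 3.67 in PERK. Only the untreated A arrays of PAR and S51A overlapped the SA100 arrays; the other 7 ended at 3.93. The change was 1.96 (SE 0.446, 3.88-fold; limma adjusted p = 0.0180), and it passed in 24 of 29 alternatives. Without those A arrays the change was 2.56. They were left out after their values were seen, so a larger change follows from the choice. Without HRI, GCN2, PKR or PERK the change missed the threshold, with limma adjusted p from 0.0768 to 0.107. That this copy was higher with SA100 than with lomustine was known beforehand, and both contrasts use the same SA100 arrays. GREB1, an oestrogen-regulated gene, changed by -0.22 and did not pass.

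The other 4 that rose did so by less. RN5S93 ran from 3.67 to 5.11 without drug (median 4.60) and from 4.54 to 6.20 with SA100 (median 5.77), a rise of 0.99 (SE 0.264; limma adjusted p = 0.0436). RN5S260 ran from 2.22 to 2.99 without drug (median 2.77) and from 3.14 to 3.79 with SA100 (median 3.35), a rise of 0.72 (SE 0.152; limma adjusted p = 0.0105). It was the 1 copy of 226 whose SA100 arrays all lay above all untreated arrays, as did 1.11% of all genes; 0 copies lay wholly below, as did 0.433%. RN5S278 rose by 0.61 (SE 0.138; limma adjusted p = 0.0173), from a median of 2.89 to 3.34, and RN5S451 by 0.45 (SE 0.121; limma adjusted p = 0.0449), from 2.13 to 2.43. In both the groups overlapped, and RN5S451 lay near or below the median of all values throughout, so that its size is uncertain too. RN5S93 passed in 16 of 29 alternatives and RN5S451 in 15 of 28, while RN5S260 passed in 26 and RN5S278 in 25 of 29.

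**Figure D2:**
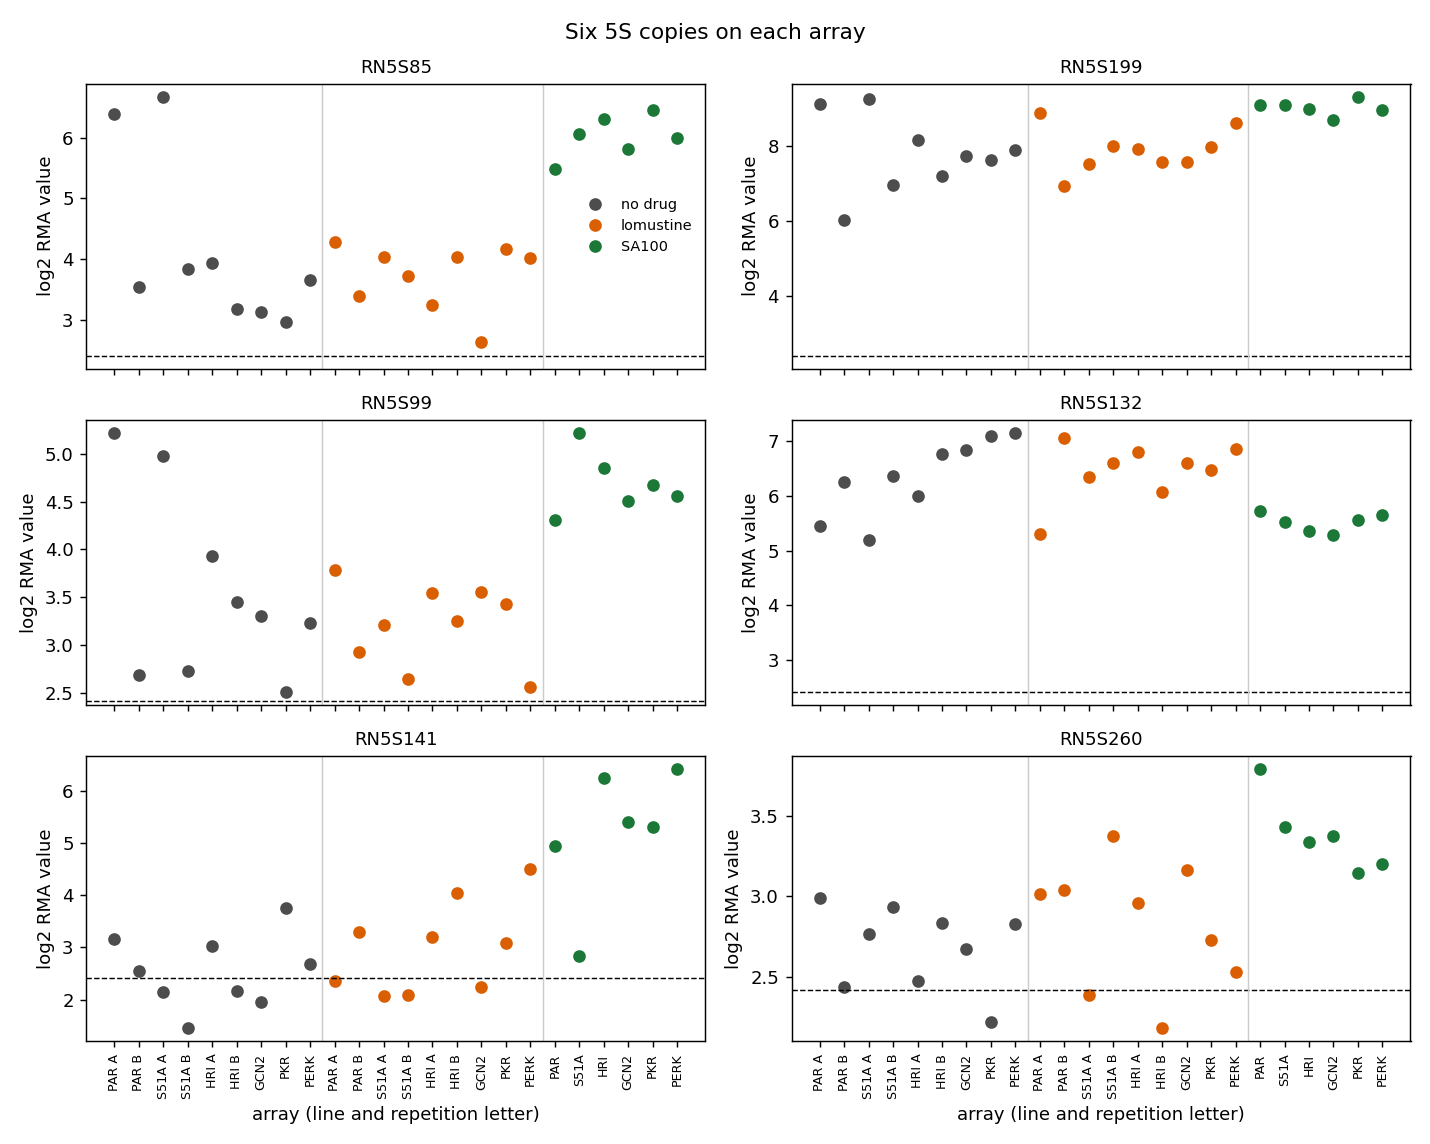
Values of 6 copies on each of the 24 arrays (vertical axis, log2 RMA value; horizontal axis, array by line and repetition letter), with no drug in grey, lomustine in orange, SA100 in green and the median of all values as a dashed line. In RN5S85, RN5S199 and RN5S99 the untreated A arrays of PAR and S51A lie with the SA100 arrays; in RN5S141 the S51A array with SA100 (2.84) lies apart from the other 5 (4.94 to 6.42).

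None of the tested genes that overlap these copies rose with them. HMBOX1, a telomere-binding homeobox gene that overlaps RN5S260, changed by -0.46 with SA100 (limma adjusted p = 0.0806), PTK2, the focal adhesion kinase gene around RN5S278, by -0.13, and CCDC85A around RN5S93 by 0.05, and none of these passed. MIB1, a ubiquitin ligase gene of Notch signalling nearest to RN5S451, fell by 0.94 (limma adjusted p = 0.0216).

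Repetitions A and B of the untreated cells differed in the 5S copies in the same way in PAR and in S51A. This was noticed in the data, so it is described without a test. In both lines 12 of the 226 copies (5.31%) read more than 1 log2 unit higher in A than in B and 0 read that much lower. Among the 17113 other genes tested, 8 (0.0467%) did so upward and 15 (0.0877%) downward. The 12 are RN5S199, RN5S85, RN5S298, RN5S99, RN5S448, RN5S399, RN5S428, RN5S255, RN5S403, RN5S191, RN5S242 and RN5S134. In HRI 2 of the 12 read that much higher in A and 1, RN5S448, that much lower (A minus B -1.26).

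On the same copies the A arrays resembled the SA100 arrays. RN5S199 read 9.11 in PAR A and 9.24 in S51A A, 6.03 to 8.15 on the other 7 untreated arrays, and 8.67 to 9.30 with SA100. RN5S99, on chromosome 2, read 5.22 and 4.98 on the A arrays, 2.51 to 3.93 on the other 7, and 4.30 to 5.22 with SA100. All 12 copies were higher with SA100 than on the B array of both lines, by 0.86 to 3.05. As they were picked for reading lower in B than in A, this follows in part from the choice. The 8 other genes picked in the same way were also higher with SA100 than on B in both lines. Against the A array the difference ran from -0.91 to 0.63, with SA100 below A for 8 of the 12 in PAR and for 9 in S51A. A second set was low on these arrays: RN5S132 read 5.44 in PAR A and 5.20 in S51A A, and 5.29 to 5.71 with SA100, while the other 7 untreated arrays lay above all of these, with a median of 6.76. RN5S150 likewise read 5.69 and 5.86 on the A arrays, 6.79 to 8.31 on the other 7 and 6.09 to 6.38 with SA100.

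Of the 6 copies that rose with SA100, 1 (RN5S85) is among the 12. The other 5 read higher with SA100 than on the A array in both lines. So did 299 of the 359 other genes called higher with SA100, a similar share. Without the A arrays of PAR and S51A, 14 copies were higher and 4 lower with SA100, against 6 and 0 with all arrays. Over all genes the calls in either direction went from 530 to 621. Leaving out PAR A alone gave 12 copies higher and 538 genes called, and S51A A alone 13 and 577. What set these A arrays apart was not tested.

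**Figure D3:**
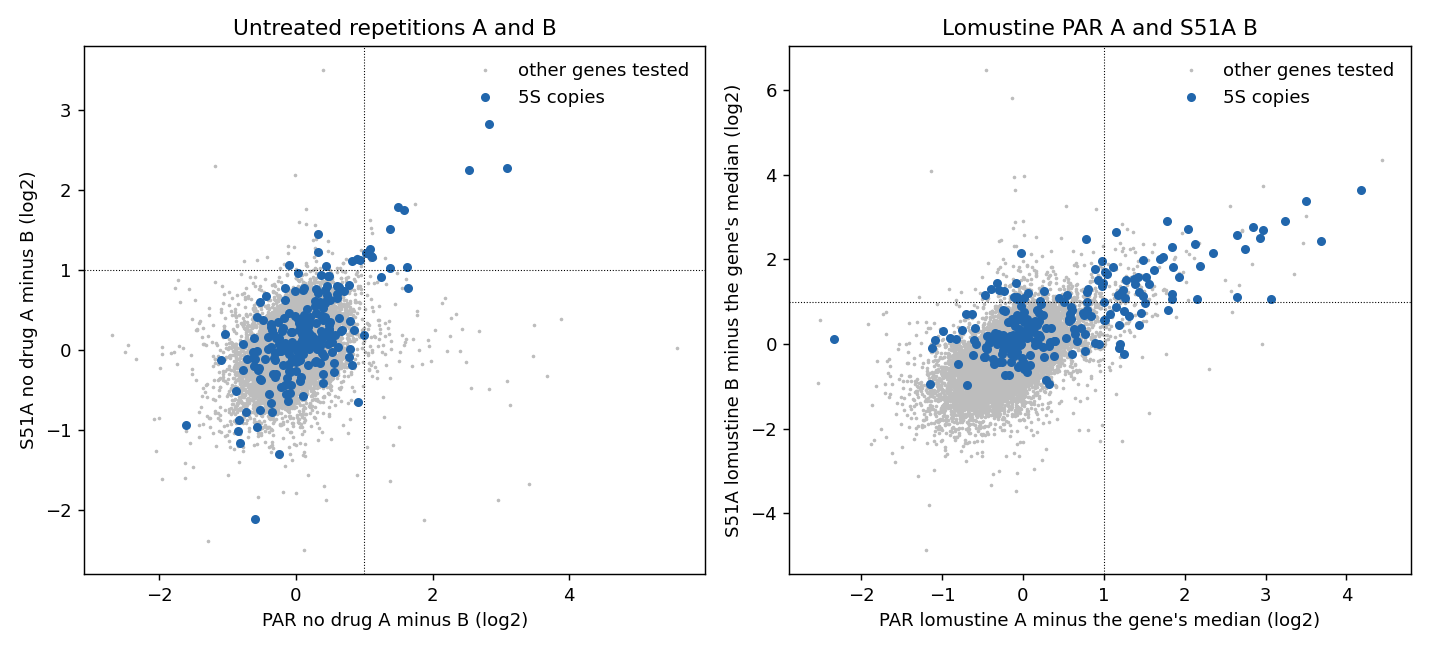
Left, the untreated difference between repetitions A and B in PAR (horizontal axis) and S51A (vertical axis); right, the distance of PAR lomustine A (horizontal) and S51A lomustine B (vertical) from each gene's 24-array median, all in log2 units. Blue points are the 226 copies and grey points the 17113 other genes; beyond both dotted lines, at 1, lie 12 copies on the left and 42 on the right.

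SA100 against lomustine put 12 copies higher (5.31%) and 3 lower (1.33%) by limma's test, and of all genes tested 5.48% were higher and 0.473% lower. At an unadjusted p under 0.05 there were 70 copies (31.0%, against 21.1% of all genes). The median change of the copies was -0.09, and that of all genes 0.08. Of the 12 higher copies 4 had also risen against no drug, and 5 belong to the 12 with untreated A above B. In 5 copies (RN5S85, RN5S99, RN5S448, RN5S399 and RN5S497) all SA100 arrays lay above all lomustine arrays, as in 1.39% of all genes. In 1 (RN5S176) they lay wholly below, as in 0.0923%. The names RN5S497 and RN5S176 were chosen after their values were seen.

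RN5S85 ran from 2.64 to 4.28 with lomustine (median 4.01) and was 2.38 higher with SA100, given as a description. RN5S141 ran from 2.06 to 4.50 with lomustine (median 3.09) and was 2.11 higher with SA100 (SE 0.310; limma adjusted p = 3.33e-04). RN5S99 ran from 2.56 to 3.79 with lomustine (median 3.25) against 4.30 to 5.22, a difference of 1.54 (limma adjusted p = 0.0114). It passed in 27 of 29 alternatives, and not without HRI (adjusted p = 0.0520) or PERK (0.0601). RN5S399, within the myosin gene MYO9A, was 1.04 higher (limma adjusted p = 0.0328), RN5S448 1.01 (0.0166) and RN5S134 0.94 (0.0351). Of these 6, RN5S141 alone lies outside the 12 copies with untreated A above B.

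Those lower with SA100 than with lomustine were RN5S132, RN5S473 and RN5S354. RN5S132, within TEX264, an autophagy receptor gene, ran from 5.30 to 7.06 with lomustine (median 6.60) and from 5.29 to 5.71 with SA100, a difference of -1.02 (SE 0.258; limma adjusted p = 0.0225). PAR lomustine A, at 5.30, was the 1 lomustine array within the SA100 range. RN5S473, on chromosome 19, ran from 4.11 to 5.71 with lomustine and from 3.31 to 4.20 with SA100, a difference of -0.98 (limma adjusted p = 0.0164). RN5S354 passed as well (limma adjusted p = 0.0463), but its medians, 2.18 and 1.73, both lay under the median of all values and cannot be told from background, so no size is given. It passed in 9 of 28 alternatives. Without GCN2, 0 copies were lower, and without PKR or PERK 1 was. Leaving out HRI, GCN2, PKR or PERK left 5, 6, 5 and 5 copies higher, while the calls over all genes went from 1032 to 657, 452, 439 and 328.

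Lomustine against no drug changed 0 copies by limma's test, in either direction, while 0.248% of all genes rose and 0.779% fell. At an unadjusted p under 0.05 there were 26 copies (11.5%, against 14.2% of all genes). The median change was 0.11 for the copies and -0.04 for all genes. A change above 0 was found for 156 of 226 copies and for 39.1% of all genes. These values include PAR lomustine A and S51A lomustine B, on which 56 and 67 copies read more than 1 log2 unit above their own median. RN5S26 (0.42, SE 0.132; limma adjusted p = 0.142) and RN5S195 (-0.33, SE 0.104; limma adjusted p = 0.145) came nearest to the threshold. Within lines, 0 copies passed in PAR, S51A or HRI, where 0%, 0.0115% and 0% of all genes did, and 11, 7 and 7 copies (4.87%, 3.10% and 3.10%) had an unadjusted p under 0.05, against 2.90%, 4.08% and 1.49% of all genes. The smallest p belonged to RN5S182 (-0.89) and RN5S457 (1.00) in PAR, RN5S427 (1.51) and RN5S115 (0.63) in S51A, and RN5S309 (0.90) and RN5S195 (-0.72) in HRI. Tested against the response of PAR, the lomustine response of S51A and of HRI put 0 copies and 0% of all genes past limma's test, and 6 copies each (2.65%) at an unadjusted p under 0.05, against 0.629% and 0.894% of all genes. RN5S442 had the widest difference, with a response 2.84 lower in HRI than in PAR (log2 difference -2.84; limma adjusted p = 1.00); of the S51A differences RN5S457 (-1.25) and RN5S116 (1.49) had the smallest p, and of the HRI differences RN5S309 (0.83) stood beside RN5S442.

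A pair of lomustine arrays of different lines and letters, PAR lomustine A and S51A lomustine B, stood apart from the other arrays. On them 56 (24.8%) and 67 (29.6%) of the copies read more than 1 log2 unit above their own 24-array median, and on each of the other 22 arrays 0 to 11 did. The medians of the copies on them were 2.87 and 3.03, against 2.38 to 2.68 elsewhere. Both arrays had this rise for 42 copies (18.6%) and for 94 of the 17113 other genes (0.549%). Since 23 copies passed the filter on low values only through this pair, the count was repeated over the 203 that pass without it: 33 (16.3%) had the rise, against 76 of 16861 other genes (0.451%). Taken singly, 43 of the 203 had it on PAR lomustine A and 56 on S51A lomustine B. In 39 of the 42 both arrays lay above all 22 others. As the 42 were picked for high values on this pair, that count follows largely from the choice. It was not repeated over the 203 or for the other genes. RN5S471 read 6.04 and 5.51 on them and at most 2.48 elsewhere; RN5S390 read 5.66 and 5.54 and at most 3.11, and RN5S478 6.19 and 5.85 and at most 3.40. These copies were named after their values were seen.

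The other repetition of each line lacked the rise, with 6 copies more than 1 unit up on PAR lomustine B and 2 on S51A lomustine A. RN5S442, for example, read 5.47 on PAR lomustine A and 3.62 on B, and 5.40 on S51A lomustine B and 2.66 on A. When S51A lomustine A was left out, 13 copies passed limma's test for lomustine in S51A, or 5.75%, while 1600 of all genes (9.23%) did, against 0 copies with both repetitions. RN5S427 changed by 2.45 in that fit (limma adjusted p = 0.0167) and by 0.56 when S51A lomustine B was left out instead, which did not pass. Leaving out both arrays of the pair gave 0 copies changed with lomustine, and 14 higher and 2 lower with SA100 than without drug. The calls over all genes with SA100 rose as well in that fit, as counted in the last section. What set this pair apart was not tested.

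**Figure D4:**
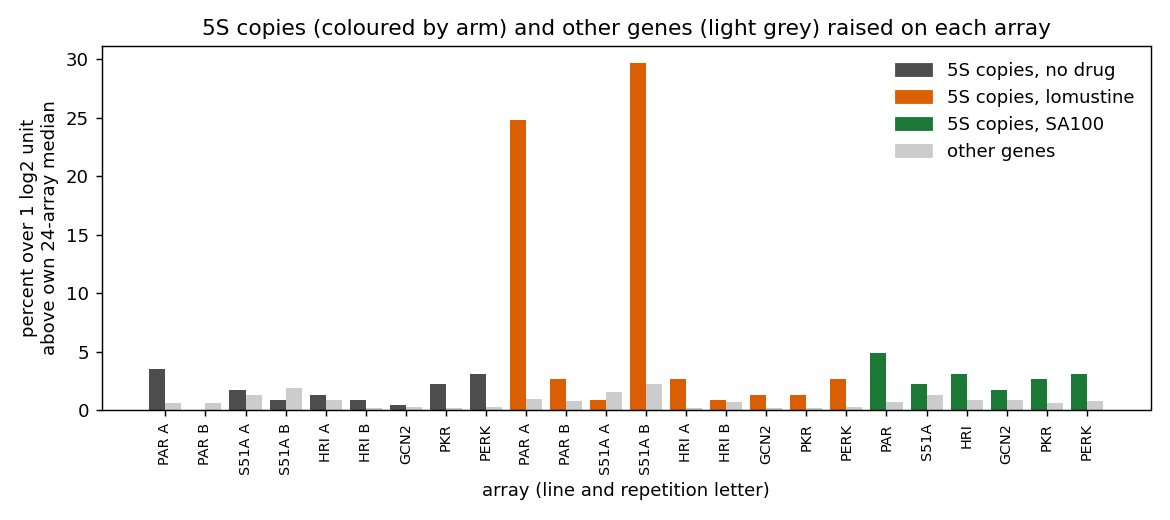
Percent of the 226 5S copies (bars coloured by treatment) and of the 17113 other genes (light grey) that read more than 1 log2 unit above their own 24-array median (vertical axis) on each array (horizontal axis, by line and repetition letter). PAR lomustine A (24.8%) and S51A lomustine B (29.6%) stand above every other array.

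A principal component analysis of the 226 copies set the same arrays apart. It uses the same values as the counts above, so it is not separate support. Of the 226 copies, 23 passed the filter only through the lomustine pair and 9 only through the SA100 arrays. The components were not recomputed without them. Component 1, with 33.9% of the variance, scored PAR lomustine A and S51A lomustine B at 13.8 each and every other array from -3.39 to 0.82. Component 2, with 19.0%, scored the 6 SA100 arrays from 3.75 to 5.29, untreated PAR A at 4.02 and S51A A at 3.79, and all other arrays at most 0.16.

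Between lines, over all arms, 0 copies passed limma's test against PAR in any line. Of all genes, 2.18% did in S51A, 0.144% in HRI, 0.0692% in GCN2, 0% in PKR and 0.179% in PERK. At an unadjusted p under 0.05 there were 9, 5, 13, 9 and 12 copies in the same order (3.98%, 2.21%, 5.75%, 3.98% and 5.31%), against 9.74%, 7.61%, 4.08%, 3.03% and 5.63% of all genes. RN5S335, on chromosome 11 within NAV2, a neuron navigator gene, came nearest. It read 2.34 and 2.46 in untreated S51A (A and B) and 3.44 to 4.38 in the other untreated arrays. How many of all genes set the untreated S51A arrays apart in this way was not counted. With SA100 it read 2.62 in S51A and 4.47 to 5.71 in the other lines. With lomustine S51A gave 2.84 and 4.37, inside the range of the others (2.46 to 5.08). The difference from PAR was -1.59 (SE 0.455; limma adjusted p = 0.0790), and it passed in 5 of 27 alternatives, with adjusted p from 0.00431 (-2.03, without S51A lomustine B) to 0.230.

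In the other lines the copies with the smallest p were RN5S444 (0.77) and RN5S148 (0.43) in HRI, RN5S43 (0.67) and RN5S111 (-0.68) in GCN2, RN5S326 (0.88) and RN5S510 (0.46) in PKR, and RN5S133 (0.56) and RN5S150 (1.33) in PERK, as log2 differences from PAR that did not pass. RN5S186 read high in PKR and PERK on the arrays without drug and with lomustine, and lower on those with SA100. Each of these groups had 1 array, and a difference between lines in the response was not tested. In PKR and PERK it read 7.56 and 7.58 without drug and 7.63 and 7.46 with lomustine, but 6.25 and 6.09 with SA100. Every other array lay between 5.13 and 6.48 except S51A lomustine B at 7.58. Its differences from PAR over all arms, 0.97 in PKR and 0.87 in PERK (SE 0.367 each), did not pass limma's test (adjusted p = 1.00 and 0.775).

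**Figure D5:**
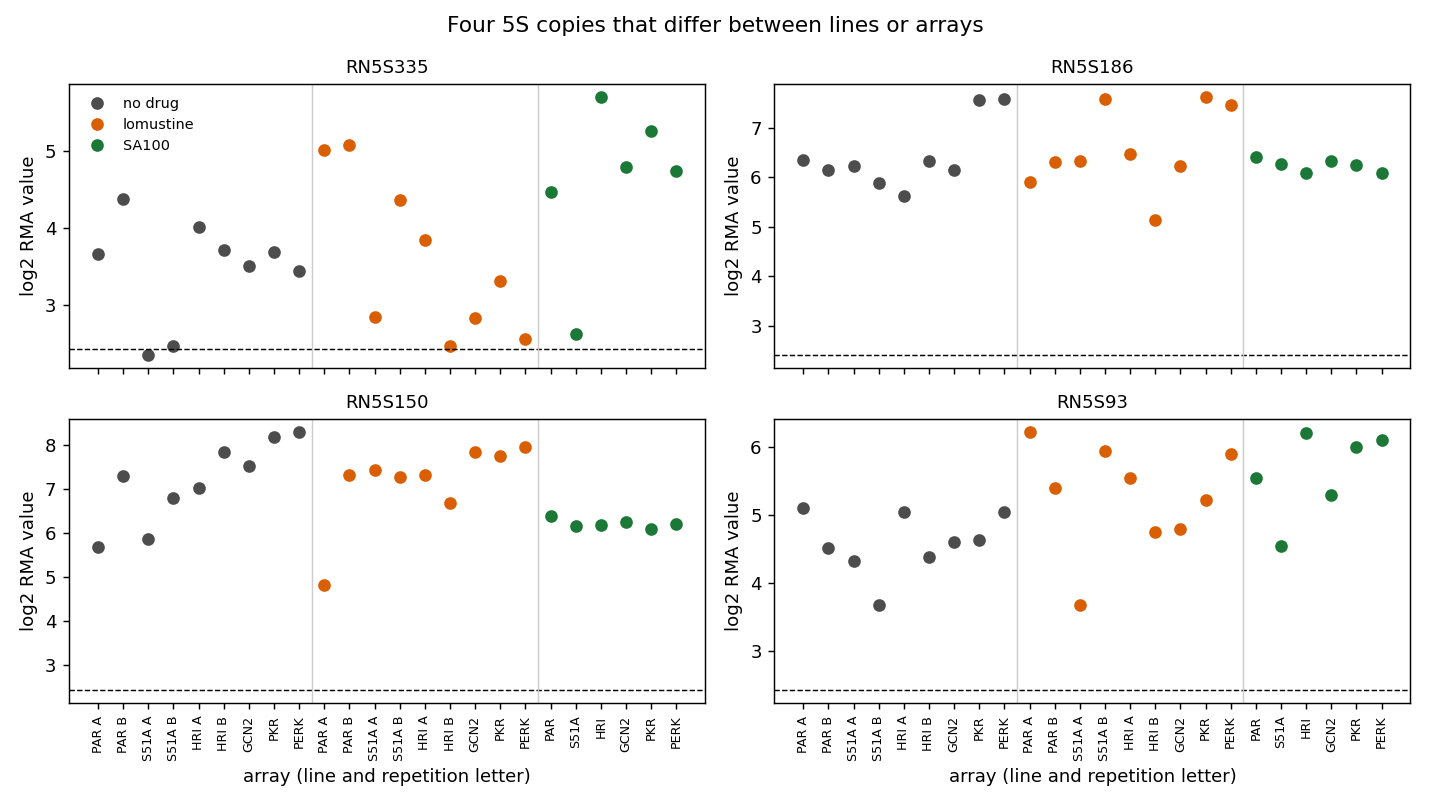
Values of 4 copies on each of the 24 arrays (vertical axis, log2 RMA value; horizontal axis, array by line and repetition letter), coloured by treatment, with the median of all values as a dashed line. RN5S335 is low in S51A except on lomustine B (4.37), and RN5S186 is high in PKR and PERK without drug and with lomustine (7.46 to 7.63).

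Of a list of 35 genes that make, regulate or bind 5S RNA, 32 were tested. With lomustine 0 rose and 3 fell (9.38%, against 0.779% of all genes), with a median change of -0.20 over the list against -0.04 for all genes. RRS1, which helps place the 5S particle in the growing ribosome, fell from a mean of 6.32 to 5.41 (log2 change -0.91, SE 0.158; limma adjusted p = 0.00426). MDM2, the ubiquitin ligase that the particle can bind, fell from 7.17 to 6.47 (-0.70; limma adjusted p = 0.0228). GTF3C4, a TFIIIC subunit, fell from 7.90 to 7.35 (-0.55, SE 0.111; limma adjusted p = 0.0140).

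With SA100 0 of the 32 rose and 1 fell (3.12%, against 0.952% of all genes), with a median change of -0.03. BDP1, a TFIIIB subunit, fell from 6.76 to 6.02 (-0.72, SE 0.186; limma adjusted p = 0.0365). Against lomustine, SA100 had 2 genes higher (6.25%, against 5.48%) and 0 lower: RRS1 by 0.84 (limma adjusted p = 0.00781) and the polymerase III subunit POLR3C by 0.46 (0.0459). GTF3A, which encodes TFIIIA, changed by -0.21 with lomustine and 0.13 with SA100, and neither passed.

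Another 27 short RNAs were tested, from families that polymerase III makes. They were picked by symbol, so pseudogenes such as RNY1P2 are among them. Their medians ran from 2.30 on S51A lomustine A to 3.04 on S51A lomustine B, near the median of all values. With lomustine 0 passed, and with SA100 1 rose (3.7%, against 2.11% of all genes). That was the vault RNA VTRNA1-3, which rose by 1.51 (SE 0.334, limma adjusted p = 0.0148). It was named after its value was seen. None of the 27 read more than 1 unit higher or lower in A than in B in both PAR and S51A, and of 21 spliceosomal RNAs 1 read higher. Among small nucleolar RNAs more passed downward than upward with SA100, with 1 of 81 box C/D RNAs (SNORD) higher and 12 lower (14.8%), and 2 of 57 box H/ACA RNAs (SNORA) higher and 7 lower (12.3%), against 2.11% and 0.952% of all genes. Differences between these classes and the 5S copies were not tested.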

How the data were processed

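The deposited table holds log2 values of 53617 probe sets on 24 arrays, made by the authors with RMA and affy, per the submitters' processing notes; versions and genome build are not given in the sources used here. RMA subtracts background, equalises the arrays' distributions and summarises probes, so a shift common to all genes is removed. Probe sets were named through the array annotation, with symbols updated by gene identifier. The 23558 with 1 symbol gave 22109 genes, of which 17339 reached the median of all values on at least 2 arrays.

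Tests used limma 3.58.1 in R 4.3.3, two-sided, with Benjamini-Hochberg adjustment over 17339 genes. A model of arm and line (16 residual degrees of freedom) compared arms and lines. A model of the 18 groups (6 residual degrees of freedom) gave values within lines, where each of the 12 groups with a single array borrows its spread from the 6 duplicated groups. Tested on simulated data with 200 genes changed by 1 log2 unit, the first recovered 96.5% for lomustine and 92.5% for SA100. Of the unchanged genes 10 and 11 were called in these runs. The second model recovered 7.5% within PAR, and 90.5% at 2 units. The changed genes were drawn from all genes tested, with noise independent between genes. The 5S copies ranged more widely (median range 1.62 against 1.10 log2 units) and shared outlying arrays. These shares therefore do not give the recovery for the copies. Named copies were RN5S85, the 8 highest, those nearest the filter and, per comparison, up to 6 past the test in each direction or the 2 with the smallest p; for the 5S pathway list, up to 4 or 2. Members and lists were chosen with earlier results of these data known. Alternatives were other filters, normalizations, priors and array sets, a replicate block, and each duplicated array or line left out. Repetition letters were not used to pair arrays, since the labels do not say whether they do. Differences of A and B, untreated against lomustine, correlated over the copies at 0.33 in PAR, -0.39 in S51A and -0.56 in HRI. These values do not settle the pairing. No 5S sequence is printed.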

Additional observations from a re-analysis of the deposited data

Results flagged for a closer look

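In 7 of 111 groups of arrays, each the values of a named copy in 1 treatment, the highest or lowest array lay further from its neighbour than Dixon's 95% limit allows; chance flags about 1 in 20 groups. Without drug, RN5S354 read 2.76 in PERK with the next array at 2.04, and RN5S43 read 3.06 in GCN2 with the next at 2.36. RN5S309 read 1.59 in untreated HRI A, below the next at 1.79. With lomustine, RN5S133 read 3.45 in PERK, above 2.46. RN5S150 read 4.82 on PAR lomustine A, below 6.68, and RN5S457 read 3.54 on that array, above 2.80. With SA100, RN5S133 read 2.49 in S51A, above 2.19.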

How the results depend on the processing

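Of 409 recomputed counts of called copies, 359 stayed within 1.5 times the reported count; of 983 recomputed changes of single copies, 888 kept their direction and their side of the threshold and 2 reversed. Both reversals were RN5S85 with lomustine, from -0.42 to 0.25 without untreated PAR A and S51A A and to 0.18 without PAR lomustine A and S51A lomustine B as well; neither passed. For SA100 against no drug (6 higher, 0 lower), leaving out 1 repetition gave 4 to 13 higher and 0 to 2 lower. It gave 14 and 2 without PAR lomustine A and S51A lomustine B, 14 and 4 without untreated PAR A and S51A A, and 27 and 8 without all 4, where the calls over all genes went from 530 to 1209, 621 and 1607. Leaving out a line gave 10 higher without S51A, 3 without HRI and 2 without GCN2, PKR or PERK, and 3 lower without PAR, 1 without S51A and 2 without HRI. Without HRI, GCN2, PKR or PERK the calls over all genes fell as well, from 530 to 345, 210, 213 and 206. Counts in this section without the calls over all genes beside them are not read as particular to the copies. For SA100 against lomustine (12 higher, 3 lower), leaving out 1 repetition gave 10 to 16 and 2 to 5. It gave 24 and 10 without the lomustine pair, and 25 and 9 without all 4. Without all 4, the calls over all genes in this contrast went from 1032 to 1435. Without HRI, GCN2, PKR or PERK, 5, 6, 5 and 5 were higher, and 0 were lower without GCN2, 1 without PKR and 1 without PERK. No filter gave 7 lower and a fit of only the arrays compared 0. For lomustine against no drug, leaving out 1 repetition gave 0 to 1 higher. For S51A against PAR it gave 0 to 2, a fit of only the arrays compared 1, and the sets without the lomustine pair or all 4 arrays 2 each. Lomustine in S51A gave 0 to 13, with 13 where S51A lomustine A was left out; there the lone array is assumed to vary like the other groups. Causes were not tested. Whether the letters pair arrays is not known. The replicate block gave 2 higher and 3 lower for SA100 against no drug and 6 higher against lomustine. The crossed pairing of S51A and HRI, added like the sets without the untreated A arrays after seeing the data, gave 0 copies within each line. Values below 2.42 cannot be told from background.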
